A study of Saccharomyces cerevisiae with 18 samples.

Results

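The genes of trehalose and glycogen metabolism were followed in budding yeast (Saccharomyces cerevisiae) that lacked the chromatin protein Hmo1, carried a temperature-sensitive DNA topoisomerase II, or both. The set is 10 genes out of 7126 features in the RNA tables. They were chosen by name for the enzymes they encode, with earlier results of these data known. The set holds GLG1, GSY1, GSY2 and GLC3 of glycogen synthesis, GPH1 and GDB1 of glycogen breakdown, TPS1, TPS2 and TSL1 of trehalose synthesis, and NTH1 of trehalose breakdown. All 10 passed the filter on low counts, as did 6085 features in all.

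RNA was sequenced from hmo1Δ (HMO1 deleted), top2-1 (a temperature-sensitive TOP2 allele), the hmo1Δ;top2-1 double mutant and wild type, each a log-phase culture grown at 28 °C and held at 37 °C for 60 min. Another library came from wild type at 28 °C, arrested in G1 and released into S phase for 15 min per its label, although its growth protocol gives the shift to 37 °C of the other libraries. Histone H3 chromatin immunoprecipitation (ChIP) covered top2-1;top1Δ cells and wild type, each carrying either a control plasmid or a plasmid that expresses Escherichia coli topoisomerase I (TopA). ChIP of tagged Hmo1 covered top2-1;top1Δ cells with the TopA plasmid and cells with a control plasmid. The control sample's title names top2-1 and top1, while its genotype label names the tag and the control plasmid alone. The genotype label was followed. ChIP cells spent 2 h 15 min at 37 °C. Top2 ChIA-PET (chromatin interaction analysis by paired-end tags) covered wild type at 28 °C, in log phase per its label, although its growth protocol gives G1 arrest and release. Every group held 1 library, so no replicate error, no test and no p-value could be had. Each interval below is a 95% interval that covers counting error alone, and reads copied by PCR, with no molecular identifier to mark them, are not independent.

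Yeast stores glucose as glycogen, a branched polymer, and as trehalose, a disaccharide that also shields proteins and membranes during heat and drying. Glucose 6-phosphate feeds both pools through glucose 1-phosphate and UDP-glucose. The genes of synthesis and of breakdown are known to be induced together by heat, by entry into stationary phase and by other stress, through stress response elements bound by Msn2 and Msn4, and protein kinase A holds them low in growing cells. Hmo1 is an abundant HMG-box protein best known at ribosomal protein genes and ribosomal DNA, and Top2 relaxes supercoils and separates linked DNA.

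The 5 RNA libraries held 4752471 (wild type, 37 °C) to 14770300 (wild type, 28 °C) estimated counts. HMO1 had 0 counts in hmo1Δ and in hmo1Δ;top2-1, against 1152 in wild type at 37 °C. With 3 counts per library taken as the limit that a count of 0 allows, that is at least 481-fold lower in hmo1Δ and at least 716-fold lower in hmo1Δ;top2-1. TRP1, an enzyme of tryptophan synthesis, was likewise at 0 counts in both deletion strains, against 152 in wild type, so the strains also differ at that marker and its part in the results cannot be told apart from the loss of Hmo1. Levels below are TPM, each library's values scaled by transcript length to a common total, while ratios are log2 ratios of counts scaled by the trimmed mean of M-values (TMM). TMM set the median of all genes to 0.00 in hmo1Δ over wild type, where library totals gave -0.25 and TPM -0.31, so ratios are relative to that median. The samples are bulk cultures, in which fewer cells with an RNA and less of it per cell cannot be told apart.

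At 37 °C the 10 genes together held 2033 TPM in hmo1Δ, 863 TPM in top2-1 and 1126 TPM in hmo1Δ;top2-1, against 749 TPM in wild type. In hmo1Δ 9 of the 10 genes were at least 2-fold higher than in wild type, where 7.13% of all genes were, and 0 were at least 2-fold lower, where 5.19% of all genes were. Their median log2 ratio was 1.68, against 0.00 over all genes. In top2-1 0 of the 10 were at least 2-fold higher or lower, where 1.53% of all genes were higher and 0.855% lower, and the median was 0.27. In hmo1Δ;top2-1 GPH1 alone was at least 2-fold higher than in wild type, where 4.7% of all genes were higher and 3.57% lower, and the median was 0.73.

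**Figure D1:**
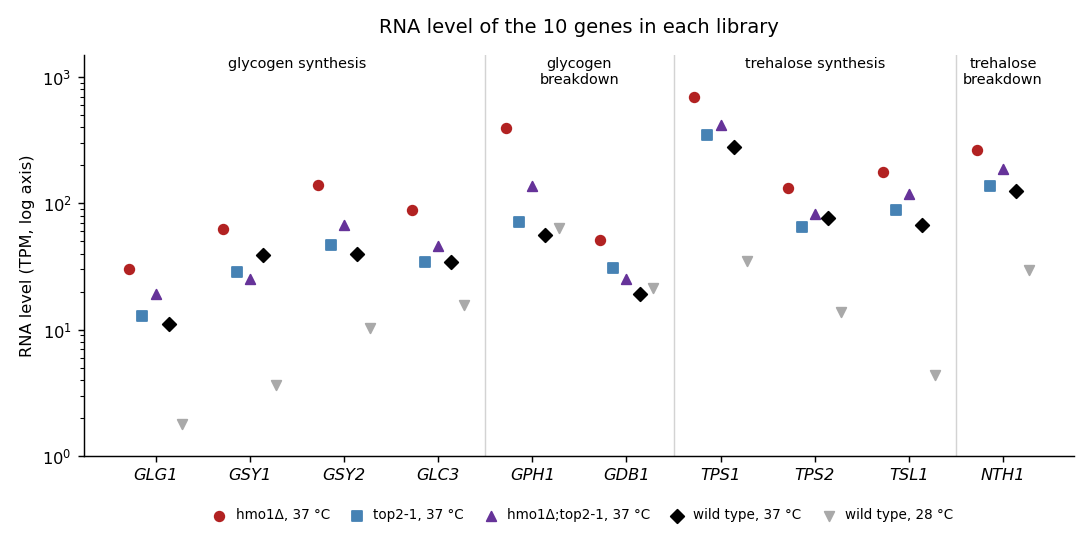
RNA level in TPM on a log axis for the 10 genes, grouped by role, with 1 point for each library. The hmo1Δ point is the highest for all 10 genes, and the wild-type point at 28 °C lies under the other points of a gene except at GPH1 and GDB1. The place of the 28 °C points reflects the TPM scale, on which the median log2 ratio of all genes, wild type at 37 °C over 28 °C, was 1.90. With TMM, 6 of the 10 genes were above 0 in that comparison and 4 below.

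Among the genes of glycogen synthesis, GSY2 stood highest above wild type in hmo1Δ. Gsy2 is the main glycogen synthase, which lengthens the chains from UDP-glucose. GSY2 (YLR258W, chromosome XII: 660716-662833 of the R64 build, plus strand) had 140 TPM in hmo1Δ, 47.1 TPM in top2-1 and 67.2 TPM in hmo1Δ;top2-1, against 39.8 TPM in wild type at 37 °C. The hmo1Δ ratio was 2.12 (1.99 to 2.27), a 4.35-fold higher level. The top2-1 ratio was 0.28 (0.11 to 0.45) and the double-mutant ratio 0.91 (0.76 to 1.06), so the double mutant lay between the single mutants.

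GSY1 encodes the second glycogen synthase and differed from its isozyme. GSY1 (YFR015C, VI: 174265-176391, minus strand) had 62.8 TPM in hmo1Δ, 28.8 TPM in top2-1 and 25.2 TPM in hmo1Δ;top2-1, against 39.1 TPM in wild type. It was the member that missed the 2-fold mark in hmo1Δ, at 0.99 (0.84 to 1.15), an interval that spans the mark. In the mutants with top2-1 its level was under that of wild type, with a ratio of -0.41 (-0.60 to -0.22) in top2-1 and -0.48 (-0.65 to -0.31) in hmo1Δ;top2-1. GSY1 was the only member with a double-mutant ratio below 0.

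GLG1 encodes a glycogenin, the protein primer on which a glycogen chain starts, and was the member with the lowest TPM in each of the 5 libraries. GLG1 (YKR058W, XI: 552770-554620, plus strand) had 29.9 TPM in hmo1Δ, 12.9 TPM in top2-1 and 19.2 TPM in hmo1Δ;top2-1, against 11.0 TPM in wild type. Its hmo1Δ ratio was 1.75 (1.47 to 2.07) from 502 counts, against 118 in wild type, and its intervals are the widest of the set. The top2-1 ratio was 0.27 (-0.08 to 0.62), not detectable as a difference at this depth, and the double-mutant ratio was 0.96 (0.67 to 1.27).

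GLC3 encodes the branching enzyme, which adds the side chains. GLC3 (YEL011W, V: 133120-135234, plus strand) had 87.9 TPM in hmo1Δ, 34.0 TPM in top2-1 and 45.8 TPM in hmo1Δ;top2-1, against 34.4 TPM in wild type. The hmo1Δ ratio was 1.66 (1.51 to 1.82). The top2-1 library could not be told from wild type, at 0.02 (-0.17 to 0.20), and the double mutant was at 0.56 (0.40 to 0.73).

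GPH1, the glycogen phosphorylase that releases glucose 1-phosphate from chain ends, had the highest ratio of the set in hmo1Δ and in the double mutant. GPH1 (YPR160W, XVI: 861306-864014, plus strand) had 392 TPM in hmo1Δ, 71.6 TPM in top2-1 and 136 TPM in hmo1Δ;top2-1, against 55.7 TPM in wild type at 37 °C. The hmo1Δ library held 9843 counts and the wild-type library 899. The hmo1Δ ratio was 3.13 (3.03 to 3.23), an 8.73-fold higher level. The ratio was 0.40 (0.28 to 0.52) in top2-1 and 1.44 (1.34 to 1.55) in hmo1Δ;top2-1.

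GDB1 encodes the debranching enzyme, which clears the branch points that stop the phosphorylase. GDB1 (YPR184W, XVI: 902044-906654, plus strand) had 51.6 TPM in hmo1Δ, 30.6 TPM in top2-1 and 25.2 TPM in hmo1Δ;top2-1, against 19.2 TPM in wild type. The ratio was 1.74 (1.60 to 1.88) in hmo1Δ and 0.71 (0.56 to 0.86) in top2-1, where it was the highest of the 10. It was 0.54 (0.40 to 0.68) in the double mutant, which thus had a lower level than either single mutant. GDB1 has the longest coding region of the set, 4611 bases, and the 231 genes of like length had a median ratio of -0.33 in hmo1Δ over wild type.

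TPS1 was the most abundant member at 37 °C. Tps1 joins UDP-glucose and glucose 6-phosphate to trehalose 6-phosphate. TPS1 (YBR126C, II: 488905-490392, minus strand) had 695 TPM in hmo1Δ, 349 TPM in top2-1 and 417 TPM in hmo1Δ;top2-1, against 280 TPM in wild type. The ratio was 1.63 (1.56 to 1.69) in hmo1Δ, 0.35 (0.28 to 0.43) in top2-1 and 0.73 (0.67 to 0.80) in the double mutant.

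TPS2 encodes the phosphatase that turns trehalose 6-phosphate into trehalose, and it had the lowest ratio of the trehalose genes in each of the 3 mutants. TPS2 (YDR074W, IV: 593893-596583, plus strand) had 133 TPM in hmo1Δ, 64.8 TPM in top2-1 and 83.0 TPM in hmo1Δ;top2-1, against 76.0 TPM in wild type. The hmo1Δ ratio was 1.12 (1.03 to 1.22), but 0.87 with library totals and 0.80 with TPM, both under the 2-fold mark. The ratio was -0.19 (-0.31 to -0.08) in top2-1 and 0.28 (0.18 to 0.38) in hmo1Δ;top2-1.

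TSL1 encodes a large regulatory subunit of the trehalose synthase complex. TSL1 (YML100W, XIII: 70624-73920, plus strand) had 176 TPM in hmo1Δ, 87.9 TPM in top2-1 and 119 TPM in hmo1Δ;top2-1, against 67.4 TPM in wild type. The ratio was 1.70 (1.61 to 1.79) in hmo1Δ, 0.42 (0.32 to 0.52) in top2-1 and 0.97 (0.88 to 1.06) in the double mutant. Measured against genes of like coding length, the double-mutant ratio was 1.14, past the 2-fold mark.

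NTH1 encodes the main neutral trehalase, which splits trehalose into glucose. NTH1 (YDR001C, IV: 450220-452475, minus strand) had 265 TPM in hmo1Δ, 137 TPM in top2-1 and 188 TPM in hmo1Δ;top2-1, against 126 TPM in wild type. The ratio was 1.39 (1.31 to 1.47) in hmo1Δ, 0.15 (0.06 to 0.24) in top2-1 and 0.73 (0.65 to 0.81) in hmo1Δ;top2-1. Genes of breakdown and of synthesis were therefore higher together in hmo1Δ, with medians of 2.43 for the 2 genes of glycogen breakdown, 1.71 for the 4 of glycogen synthesis and 1.63 for the 3 of trehalose synthesis.

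**Figure D2:**
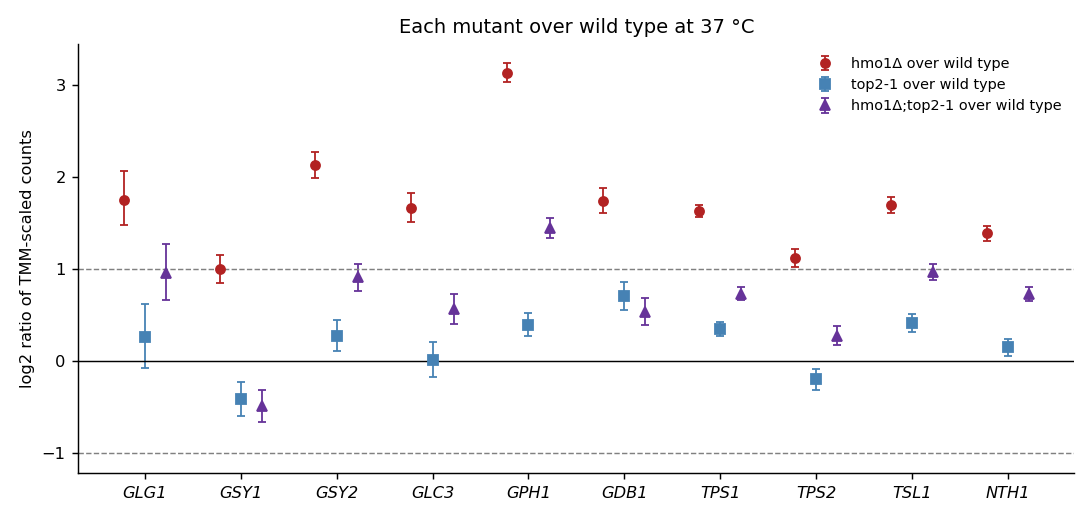
Log2 ratio of hmo1Δ, top2-1 and hmo1Δ;top2-1 over wild type at 37 °C for the 10 genes, with 95% counting intervals as bars and dashed lines at 2-fold. The hmo1Δ points lie between 0.99 and 3.13, the top2-1 points between -0.41 and 0.71, and the double-mutant points between them except at GSY1 and GDB1, where they are the lowest.

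The design crosses both genotypes, so the loss of Hmo1 can be read with the top2-1 allele and without it. The comparisons below share libraries and are not independent of each other. In hmo1Δ;top2-1 over top2-1, GPH1 alone was at least 2-fold higher, at 1.05 (0.96 to 1.13), where 3.76% of all genes were higher and 3.75% lower. Library totals gave 0.95 and TPM 0.92 for it, both under the mark. The median of the 10 was 0.55. GDB1 was at -0.17 (-0.29 to -0.05) in that comparison, but at 0.039 once the median of genes of like coding length was taken off. GSY1 was at -0.07 (-0.25 to 0.10), not detectable as a difference.

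In hmo1Δ;top2-1 over hmo1Δ, all 10 genes were lower, where 2983 of the 6085 genes kept were, and their median was -1.0. At least 2-fold lower were 5 of 10, where 2.48% of all genes were lower and 1.73% higher. These 5 were the genes of glycogen metabolism other than GLG1. GPH1 was at -1.68 (-1.73 to -1.63), GSY1 at -1.48, GSY2 at -1.21 and GDB1 at -1.20. GLC3 was at -1.10, though library totals put it at -0.91 and TPM at -0.92, short of 2-fold. The 4 trehalose genes lay closer to hmo1Δ, between -0.89 for TPS1 and -0.66 for NTH1, and GLG1 was at -0.80. This was not particular to the set. In the same comparison 12 of 12 other general stress genes, taken up below, were lower, with a median of -1.11, and 7 were at least 2-fold lower.

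If the effects of the genotypes added on the log2 scale, the double-mutant ratio would equal the sum of the single-mutant ratios. For all 10 genes the double-mutant ratio was below that sum, where 2988 of the 6085 genes kept were. Each member's interval of the difference also lay below 0. Intervals were not computed for the other genes, so the share of all genes with such an interval is not known. The median departure was -1.13, and the members ranged from -2.08 to -0.65. Over all genes the median was 0.00, with 90% of genes between -0.92 and 0.75. The departure was -2.08 (-2.21 to -1.95) for GPH1, where the single mutants add to 3.52 and the double mutant was at 1.44. It was -1.91 (-2.08 to -1.73) for GDB1 and -1.49 (-1.68 to -1.30) for GSY2. The other glycogen genes were at -1.12 for GLC3, -1.07 for GSY1 and -1.06 for GLG1. The trehalose genes were at -1.25 for TPS1, -1.15 for TSL1, -0.81 for NTH1 and -0.65 for TPS2, so both groups overlapped, with GPH1, GDB1 and GSY2 farthest from the sum and NTH1 and TPS2 nearest to it. The 10 departures rest on the same 4 libraries and are not independent of each other. A double-mutant ratio below the sum was not particular to the set. Of the other general stress genes, HSP12 was at 3.31 in hmo1Δ, 1.42 in top2-1 and 2.39 in hmo1Δ;top2-1. HSP26 was at 3.79, 1.32 and 2.45 in the same order.

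**Figure D3:**
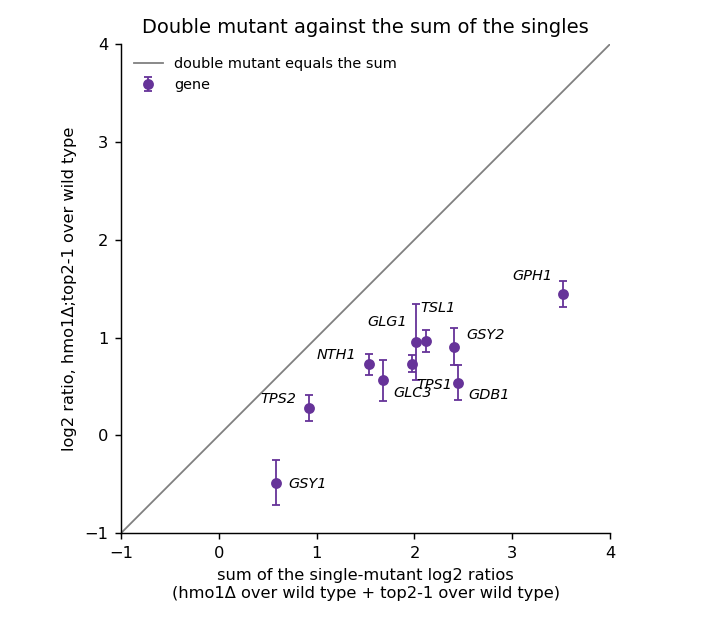
Log2 ratio of hmo1Δ;top2-1 over wild type against the sum of the log2 ratios of hmo1Δ and top2-1 over wild type, 1 point for each of the 10 genes. Bars are the 95% counting interval of the difference between the axes, and the line marks equal values; all 10 points lie under it, GPH1 the farthest at -2.08.

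Several steps of the pathway are shared by paired isozymes or subunits, and the ratio of their TPM within a library needs no scaling between libraries. How the authors' counting split reads between similar copies could not be checked. GSY2 over GSY1 was 2.22 (2.08 to 2.38) in hmo1Δ, 1.64 (1.45 to 1.85) in top2-1 and 2.67 (2.44 to 2.93) in hmo1Δ;top2-1, against 1.02 (0.90 to 1.16) in wild type at 37 °C. The synthase RNA thus leaned to GSY2 in the 3 mutants, while both isozymes were level in wild type. GLG1 over its paralog GLG2 was 1.45 in hmo1Δ, 0.488 in top2-1 and 0.790 in hmo1Δ;top2-1, against 0.372 in wild type, and the order of the glycogenins was reversed in hmo1Δ alone. TSL1 over TPS3, the other regulatory subunit of the trehalose synthase complex, was 3.09 in hmo1Δ, 1.83 in top2-1 and 2.53 in hmo1Δ;top2-1, against 1.28 in wild type.

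NTH1 over NTH2, the lesser neutral trehalase, varied less, with 3.65 in hmo1Δ, 2.70 in top2-1 and 3.88 in hmo1Δ;top2-1, against 2.45 in wild type. The widest span was at phosphoglucomutase, which converts glucose 6-phosphate and glucose 1-phosphate. PGM2 over PGM1 was 12.5 (11.3 to 13.9) in hmo1Δ, 2.32 in top2-1 and 6.10 in hmo1Δ;top2-1, against 1.07 (0.98 to 1.18) in wild type. HXK1 over HXK2, the hexokinases, was 2.76 in hmo1Δ, 0.939 in top2-1 and 1.35 in hmo1Δ;top2-1, against 0.751 in wild type. Between the first enzyme of trehalose synthesis and the trehalase, TPS1 over NTH1 was 2.62 in hmo1Δ, 2.55 in top2-1 and 2.22 in hmo1Δ;top2-1, against 2.22 in wild type. Between the enzymes of synthesis, TPS1 over TPS2 was 5.22 (5.02 to 5.44) in hmo1Δ, 5.38 (5.05 to 5.74) in top2-1 and 5.03 (4.81 to 5.25) in hmo1Δ;top2-1, against 3.68 (3.44 to 3.95) in wild type, and the intervals of the 3 mutants lay above that of wild type.

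**Figure D4:**
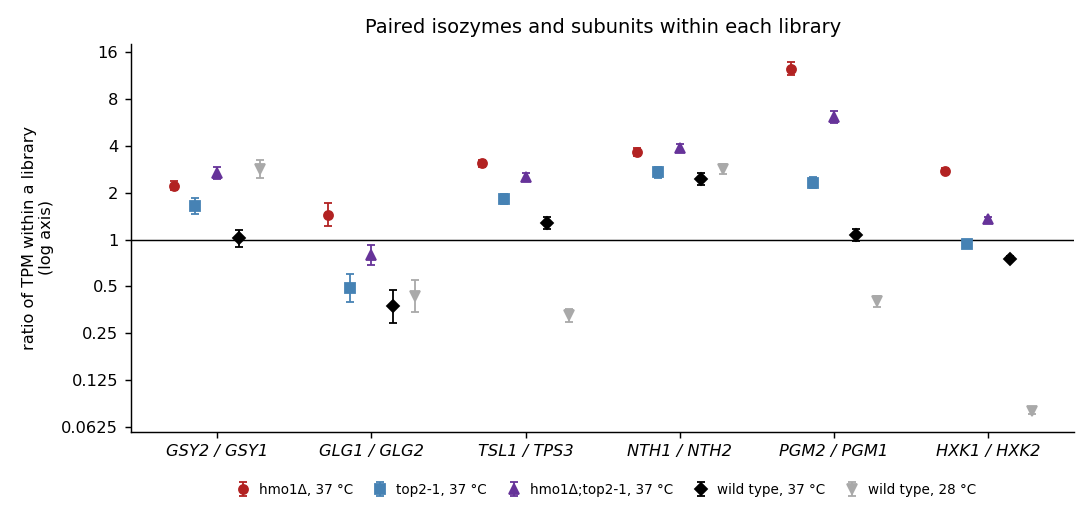
Ratio of the TPM of paired genes within each library on a log axis, with 95% counting intervals. In hmo1Δ the ratio is above that of wild type at 37 °C for all 6 pairs, with the closest values at NTH1 over NTH2 (3.65 against 2.45) and the farthest apart at PGM2 over PGM1 (12.5 against 1.07).

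For each list of related genes below, 7.13% of all genes were at least 2-fold higher in hmo1Δ and 5.19% lower. In hmo1Δ;top2-1 the shares were 4.7% and 3.57%. Other enzymes and subunits of both pathways were mixed in hmo1Δ over wild type, with 3 of 8 at least 2-fold higher, 1 of 8 lower and a median of 0.84. PGM2 was at 2.08, SGA1, a glucoamylase known from sporulation, at 1.41, and UGP1, which makes UDP-glucose, at 1.31. PGM1 was at -1.46 (-1.64 to -1.29), with 26.3 TPM in hmo1Δ, 73.6 TPM in top2-1 and 27.6 TPM in hmo1Δ;top2-1, against 90.2 TPM in wild type. It was low in both strains without Hmo1, and at -1.55 in hmo1Δ;top2-1 over wild type. NTH2 was at 0.81 in hmo1Δ, the acid trehalase gene ATH1 at 0.86, TPS3 at 0.43 and GLG2 at -0.19 (-0.49 to 0.10).

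Among 14 genes that control glycogen synthase and phosphorylase, 3 were at least 2-fold higher in hmo1Δ and 0 lower, at a median of 0.41. These were GIP2 at 1.58 and GAC1 at 1.22, which target the phosphatase Glc7 to glycogen enzymes or are thought to, and IGD1, an inhibitor of the debranching enzyme, at 1.4. GLC7 itself was at 0.19 and the kinase gene PHO85, whose product acts on glycogen synthase, at 0.59. In the double mutant GIP2 was at 1.10 and was the only one of the 14 past 2-fold. Of 4 hexose kinase genes 0 were at least 2-fold higher in hmo1Δ, while HXK2, the hexokinase of growth on glucose, was at -1.25 (-1.31 to -1.20).

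Of 10 genes for stress and nutrient kinases and factors, 3 were at least 2-fold higher in hmo1Δ. They were YAK1, a kinase opposed to protein kinase A, at 1.26, TPK2, a catalytic subunit of that kinase, at 1.06 and BCY1, its inhibitory subunit, at 1.03. The factor genes MSN2 and MSN4 were at 0.17 and 0.64. A list of 12 other general stress genes includes heat shock proteins, catalase and aldehyde dehydrogenase. Of these, 10 were at least 2-fold higher in hmo1Δ, where 7.13% of all genes were, at a median of 2.00. In hmo1Δ;top2-1 7 were, where 4.7% of all genes were, at a median of 1.33. The median of the 10 trehalose and glycogen genes, 1.68 in hmo1Δ and 0.73 in the double mutant, was below that of these stress genes in both. Members and lists were chosen with earlier results of these data known, so neither the counts nor this order is free of that choice.

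Markers of mating type and sporulation were read beside these ratios. The 5 a-cell markers summed to 617 TPM in hmo1Δ, 1714 TPM in top2-1 and 841 TPM in hmo1Δ;top2-1, against 1816 TPM in wild type. MFA2 made up most of that sum, with 471 TPM from 48 counts in hmo1Δ, against 1419 TPM from 92 counts in wild type. Of the 4 with enough counts, BAR1 was at -2.47, MFA2 at -1.23 and STE6 at -0.93 in hmo1Δ. STE2, which had the most counts, was at -0.40. The 4 alpha-cell markers summed to 34.8 TPM in hmo1Δ, 55.1 TPM in top2-1 and 30.4 TPM in hmo1Δ;top2-1, against 41.8 TPM in wild type. The 4 sporulation markers summed to 19.5 TPM in hmo1Δ, 25.2 TPM in top2-1 and 15.4 TPM in hmo1Δ;top2-1, against 19.4 TPM in wild type. That sum hides opposite moves among the 3 with enough counts. In hmo1Δ DIT1 was at 1.55, with 190 counts against 51 in wild type. SPS1 was at -1.42, with 18 counts against 41. No marker of the 3 lists was at 0 in these libraries. The a-cell level moved with the loss of Hmo1, and its part in the results was not tested.

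The median profile of the 10 genes over the 4 libraries at 37 °C, each gene centred on its own mean log2 level, was 0.98 in hmo1Δ, -0.46 in top2-1 and 0.07 in hmo1Δ;top2-1, against -0.71 in wild type. By Euclidean distance over these 4 values, TPS1 (0.139) and GLG1 (0.152) lay closest to it and GPH1 (1.13) and GSY1 (0.895) farthest, while the median distance of all genes was 1.35. The 6 other genes nearest to the profile were AIM19 at 0.113, the aldehyde dehydrogenase gene ALD2 and YLR152C at 0.151 each, the metallothionein gene CRS5 at 0.167, YMR196W at 0.181 and YOL153C at 0.197. With 4 points a profile, closeness is a description.

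Wild type at 37 °C over wild type at 28 °C differed in temperature and in cell cycle stage, and the 28 °C library differed in the makeup of its RNA, so these cannot be told apart. At least 2-fold higher at 37 °C were 3 of 10 genes, where 14.5% of all genes were, and 2 of 10 were at least 2-fold lower, where 17.8% were. TSL1 was at 1.97 (1.83 to 2.12), GSY1 at 1.42 and TPS1 at 1.01, close to the 2-fold mark. Both genes of glycogen breakdown were lower at 37 °C, GPH1 at -2.16 (-2.27 to -2.07) and GDB1 at -2.13. Genes of like coding length had medians of -0.40 for GPH1 and -1.09 for GDB1. With these taken off, GPH1 was at -1.77 and GDB1 at -1.04. Library totals moved the median of all genes to 0.88 and TPM to 1.90, and with TPM the ratios were -0.18 for GPH1 and -0.15 for GDB1.

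Ratios within a library avoid that scaling. GPH1 over GSY2 was 1.4 (1.3 to 1.6) in wild type at 37 °C, against 6.12 (5.70 to 6.58) at 28 °C. TSL1 over TPS3 was 1.28 at 37 °C, against 0.325 at 28 °C, and HXK1 over HXK2 was 0.751 at 37 °C, against 0.0794 at 28 °C. GSY2 over GSY1 was 1.02 at 37 °C, against 2.82 (2.47 to 3.23) at 28 °C, an interval that overlaps the one in hmo1Δ;top2-1 at 37 °C.

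Hmo1 was read over promoters, taken as the 500 bp before the start codon. In top2-1;top1Δ cells with TopA a deposited Hmo1 peak overlapped 9 of 10 promoters, where 41.4% of 6002 nuclear coding genes had one, and in control cells likewise 9 of 10, where 45.2% had one. GLG1 was the exception in both, with the nearest peak edge 13806 bp from its start codon in top2-1;top1Δ cells with TopA and 14255 bp in control cells. Many of the peaks were wide and spanned whole genes and their neighbours. With the peak's centre required inside the window, 1 of 10 remained in top2-1;top1Δ cells with TopA, where 7.76% of genes did, and 1 of 10 in control cells, where 9.03% did.

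Among the peaks over the 9 promoters in control cells, that of GPH1 was the narrowest and had the highest score. It was 1262 bp wide (XVI: 860260-861521), centred 415 bp before the start codon, with a score of 2.47, higher than 99.3% of peaks in that list. In top2-1;top1Δ cells with TopA the peak at GPH1 was 4631 bp wide (XVI: 860387-865017) and covered the whole gene, with a score of 1.28, higher than 89.1% of its own list. TPS2 had the second-highest score in control cells, 2.37, in a peak of 3565 bp that reached 19.0% into its coding region. The peak scores are the authors', their scale is not stated and scores of the 2 lists were not compared.

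At GSY1 and GLC3 the listed peak in top2-1;top1Δ cells with TopA ended before the start codon. The GSY1 peak was 743 bp wide in top2-1;top1Δ cells with TopA, against 7169 bp over the whole gene in control cells. Of the 743 bp, 346 bp lay in the promoter window, and the centre of the peak lay upstream of that window. The GLC3 peak in top2-1;top1Δ cells with TopA lay wholly within its promoter window. At GLC3 the peak was 309 bp wide in top2-1;top1Δ cells with TopA, against 2194 bp over 83.0% of the coding region in control cells. At GSY2, TPS1 and TSL1 peaks of 6720 bp, 6749 bp and 6841 bp in top2-1;top1Δ cells with TopA, against 9022 bp, 8417 bp and 7515 bp in control cells, covered promoter and coding region whole.

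Nucleosomes were read from the deposited lists of H3 positions, each 148 bp wide, as the share of bases they covered. In top2-1;top1Δ cells 8 of 10 promoters held no nucleosome with TopA, where 80.1% of all coding genes held none, and 8 of 10 with the control plasmid, where 63.1% held none. In wild type the counts were 9 of 10 with TopA, where 66.7% of all coding genes held none, and 10 of 10 with the control plasmid, where 73.6% held none. In top2-1;top1Δ cells with TopA the exceptions were GSY1, with 51.0% of the window covered, and GLG1, with 29.6%. In top2-1;top1Δ cells with the control plasmid they were GSY2, with 29.6%, and TPS1, with 14.6%, and in wild type with TopA it was TPS2, with 1.0%.

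The coding regions of the 10 genes had a median cover above that of all coding genes in each of the 4 libraries. It was 13.4% in top2-1;top1Δ cells with TopA, 53.3% in top2-1;top1Δ cells with the control plasmid, 47.1% in wild type with TopA and 45.0% in wild type with the control plasmid. Over all coding genes the medians were 0.0%, 31.4%, 35.5% and 29.1% in the same order of libraries. Against the 2263 genes at least as long as TPS1, the shortest member, whose medians were 6.87%, 33.0%, 41.7% and 38.1%, 6, 8, 6 and 8 of the 10 lay above.

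Members differed among themselves. With the control plasmid, cover of GPH1 was 56.8% in top2-1;top1Δ cells, against 39.9% in wild type, and cover of GSY2 was 65.2% in top2-1;top1Δ cells, against 41.9% in wild type. TPS1 ran the other way, with 49.7% in top2-1;top1Δ cells, against 62.0% in wild type. NTH1 and GLG1 had the lowest cover in both, with 26.2% and 29.7% in top2-1;top1Δ cells, against 32.8% and 31.7% in wild type. The first summit inside GPH1 lay 187 bp after the start codon in top2-1;top1Δ cells with the control plasmid, 199 bp in wild type with TopA and 219 bp in wild type with the control plasmid. At GDB1 it lay 170 bp, 181 bp, 180 bp and 193 bp after the start codon in top2-1;top1Δ cells with TopA, top2-1;top1Δ cells with the control plasmid, wild type with TopA and wild type with the control plasmid. Each other member spanned a wider range. In the same order of libraries the first summit lay at 184 bp, 1060 bp, 210 bp and 280 bp in GLG1. In GLC3 it lay at 1549 bp, 252 bp, 297 bp and 460 bp.

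The list of top2-1;top1Δ cells with TopA held 10841 nucleosomes, against 21862 in the same cells with the control plasmid, and they were spread unevenly over chromosomes. GPH1, TPS1 and NTH1 had no listed nucleosome there, while GSY1 was covered to 72.8%, TSL1 to 59.1% and GLG1 to 52.1%. GSY1 lies on chromosome VI, where the median gene was covered to 46.7% in that library, and GLG1 on XI, where it was 11.2%. TSL1 lies on XIII, where the median was 0.0%, and its cover was above that of 93.9% of genes on that chromosome. What set the unevenness was not tested, and differences between the lists, which start at unlike summit values, are differences in listed nucleosomes and not in the amount of H3.

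**Figure D5:**
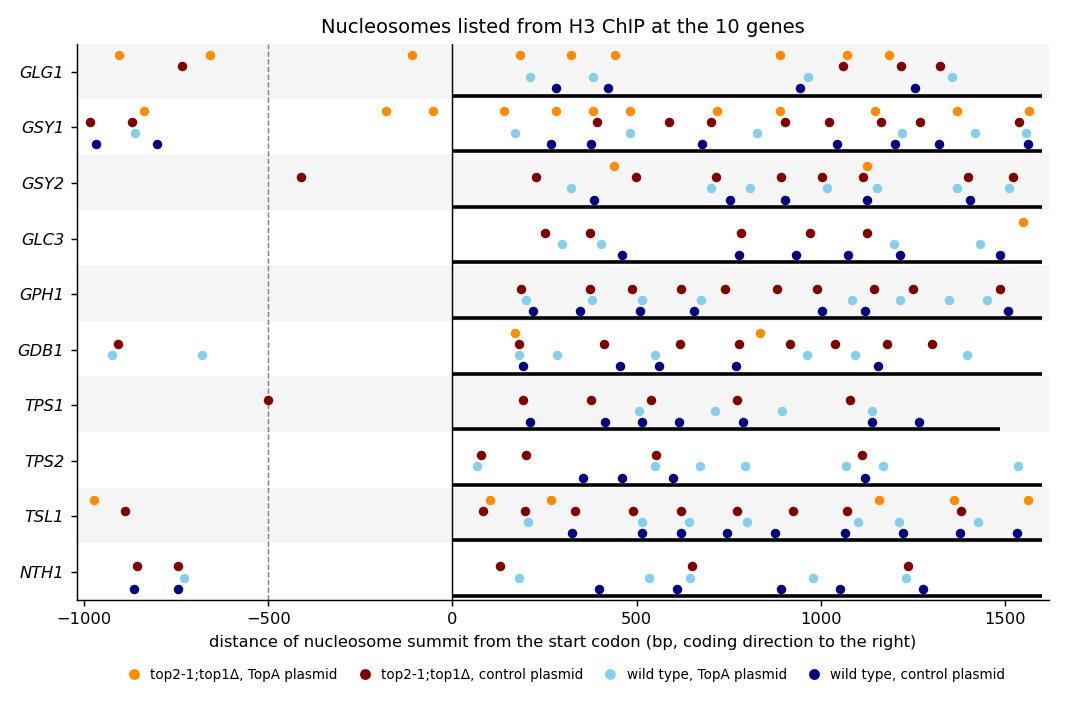
Summits of nucleosomes listed from H3 ChIP at the 10 genes, by distance from the start codon in bp, with the 4 libraries as rows of points within each gene and the coding region as a black line. Points are missing from nearly all of the 500 bp before the start codon, and the top2-1;top1Δ TopA row has no point in the plotted span at GPH1, TPS1, TPS2 and NTH1; at TPS2 the 1 listed nucleosome lies beyond it.

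In the Top2 ChIA-PET data an anchor touched the coding region of 4 of 10 genes, where 35.0% of all coding genes were touched, and 46.9% of those at least as long as TPS1, the shortest member. The build of that file is not stated and its coordinates were read as R64. GLG1 had both anchors of a pair inside the gene (XI: 553087-553536 and 554251-554830, 2 tags), as did NTH1 (IV: 450691-451001 and 451858-452008, 2 tags). A second anchor at the end of NTH1 (IV: 450143-450617) was joined by 3 tags to XII: 460330-460649. The anchors at TPS1 (II: 488631-488916 and 490410-490747) flanked the gene, 1 at each end, and GDB1 was joined at its end to ATG13, 2 tags each.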

How the data were processed

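The authors deposited RSEM expected counts, TPM and FPKM per gene. STAR, RSEM and the R64 build are named in the submitters' processing notes, and FPKM was not used. Nothing used here states whether strand entered the counting. Expected counts were rounded and scaled by TMM factors over the 5 RNA libraries (edgeR 4.0.16, R 4.3.3). Genes averaging 20 counts or more were kept, and log2 CPM was taken with 2 prior counts. Ratio intervals are exact binomial (Clopper-Pearson) 95% intervals, and for the departure from the sum they come from the Poisson error of 4 counts. At least 2-fold is a rule of size, not a test. Per the file headers, the deposited H3 lists hold the smoothed signal of each nucleosome's summit and a fuzziness score. The deposited Hmo1 lists hold a peak score of unstated scale, and the deposited ChIA-PET file gives the count of tags per pair of anchors. The submitters' processing notes name Picard, SAMtools and deepTools for ChIP, and cutadapt, BWA, Picard and bedtools for ChIA-PET. Callers and thresholds are not given in the sources used here. An overlap needed 1 bp. Gene positions and names are those of RefSeq's R64 table, matched by locus tag, with strand from the systematic name. The 6 ChIP inputs were not used. All 10 members are named; other genes came from lists of the pathway and of markers (74 genes, 71 kept), and the genes nearest in profile were the first 6 by distance. Members and lists were chosen with earlier results of these data known. The log2 ratio and its interval were run on simulated Poisson counts. Those were scaled by a median of ratios, so the TMM step was not tested.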

Additional observations from a re-analysis of the deposited data

Results flagged for a closer look

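Some genes moved one way under a change of genotype in one background and the opposite way in the other. Each direction rests on 1 library a group, and the difference was not tested.

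Loss of Hmo1 went with more GDB1 RNA in cells with TOP2, at a log2 ratio of 1.74 for hmo1Δ over wild type, and with less in top2-1 cells, at -0.17 for hmo1Δ;top2-1 over top2-1. With genes of like coding length taken off, the second value was 0.039.

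The top2-1 allele went with slightly more RNA in cells with Hmo1 and with less RNA in cells without it for 8 genes. For 6 of them both counting intervals lay off 0, and their values follow, while the first interval of GLG1 (0.27 and -0.80) and of GLC3 (0.02 and -1.10) spanned 0. GSY2 was at 0.28 in top2-1 over wild type and at -1.21 in hmo1Δ;top2-1 over hmo1Δ. GPH1 was at 0.40 and -1.68 in the same comparisons, and GDB1 at 0.71 and -1.20. TPS1 was at 0.35 and -0.89, TSL1 at 0.42 and -0.73, and NTH1 at 0.15 and -0.66. These ratios share libraries with each other and with the departures from the sum given above, so they are not separate evidence.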

How the results depend on the processing

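No paired analysis was possible because each group held 1 library. Of the main values (counts and medians of the 10 genes), 219 recomputations stayed and 16 moved. A count stayed if it was equal or within 1.5 times. A median stayed if it lay between the second-lowest and second-highest member, which is a spread between genes and not a counting interval. For single genes, 541 stayed within the counting interval, 106 moved and 3 changed sign, and why was not tested. At a 1.5-fold mark, 1 gene was higher in top2-1 over wild type (5.88% of all genes), 6 in hmo1Δ;top2-1 over wild type (12.7%), 3 in hmo1Δ;top2-1 over top2-1 (11.5%), and 10 were lower in hmo1Δ;top2-1 over hmo1Δ (7.92%). Against genes of like coding length, 2 were at least 2-fold higher in hmo1Δ;top2-1 over wild type, and GDB1 in hmo1Δ;top2-1 over top2-1 was at 0.039. That setting was computed for the 10 genes alone, so no share of all genes stands beside its count. With library totals 0 genes (2.97% of all genes) and with TPM 0 genes (2.38%) were at least 2-fold higher in hmo1Δ;top2-1 over top2-1. For wild type at 37 °C over 28 °C, 6 were higher with library totals, where 44.9% of all genes were, and 8 with TPM, where 81.7% were. There 0 were lower with TPM (3.55% of all genes), and the median with TPM was 2.07, against 1.90 over all genes. In that comparison GLC3 changed sign, from -0.84 with TMM to 0.067 with library totals and 1.10 with TPM. With the centre of an Hmo1 peak inside the promoter 1 gene was left in each list, and with peaks of at most 3000 bp, an alternative chosen after seeing the data, 3 in each list, where 18.9% of coding genes were left in top2-1;top1Δ cells with TopA and 19.3% in control cells. Without the lowest 25% of summit values, median H3 cover of coding regions in wild type with TopA was 35.9%, against 24.9% over all coding genes. The 9 genes at least 2-fold higher in hmo1Δ were 8 to 10 over all settings, and every departure from the sum stayed below 0. Depth limits GLG1 most, with 118 counts in wild type at 37 °C.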
